A study of Homo sapiens with 8 samples.

Results

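The comparison described here sets SNORA13 knockout (KO) clones of human BJ fibroblasts against wild-type (WT) clones, all kept without 4-hydroxytamoxifen (4-OHT). It takes 4 of the 8 RNA-seq libraries of the series: WT clones 15 and 54 and KO clones 66 and 69, each as 1 library. The members are all genes with enough reads to test, 16542 of the 58825 gene entries used. BJ is an established line of skin fibroblasts, and the labels give the genotypes as BJ-HRAS WT and BJ-HRAS SNORA13 KO, so every clone shares that background. The other 4 libraries come from the same clones after 100 nM 4-OHT for 7 days and serve here only to estimate the spread and to ask whether a difference was also there with the drug. 4-OHT is commonly used to switch on proteins fused to an oestrogen receptor domain, and the labels do not say what it acts on in these cells. Each genotype is represented by 2 clones, so what sets a clone apart for reasons other than SNORA13 cannot be told apart from genotype, and p-values measure the spread between these clones.

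SNORA13 is a small nucleolar RNA of the H/ACA box class. Such RNAs fold into hairpins, end shortly after an ACA box and, bound to dyskerin and its partner proteins, usually guide the conversion of uridine to pseudouridine in ribosomal RNA. They are cut out of the introns of longer host transcripts, here EPB41L4A-AS1. The title of the series names a non-canonical role of such an RNA in ribosome biogenesis and senescence, and this comparison shows what the clones without it expressed before any drug was given.

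The RNA that defines the genotype lies on chromosome 5 of GRCh38 (chr5:112161485-112161617, plus strand), within EPB41L4A-AS1 (chr5:112160526-112164276). It is printed 5′ to 3′ as DNA letters from the GENCODE transcript set, with the ACA box in capitals.

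SNORA13: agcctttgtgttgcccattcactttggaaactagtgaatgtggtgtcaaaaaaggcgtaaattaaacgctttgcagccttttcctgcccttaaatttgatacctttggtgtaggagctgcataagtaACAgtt

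SNORA13 had 6 and 4 reads in the WT libraries of clones 15 and 54 and 0 reads in both KO libraries, where 3 reads would correspond to 0.934 and 0.914 RPKM (reads per kilobase of gene, scaled to the depth of the library). Its reads match the labels, but with so few reads in WT the size of the loss was not measurable. EPB41L4A-AS1, the host transcript, stood at 4.28 and 4.06 RPKM in WT and at 6.78 and 7.63 RPKM in KO. Its RNA was thus higher in both KO clones than in both WT clones, 1.71-fold (limma, adjusted p = 0.0184). Spliced and unspliced RNA were not separated.

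At an adjusted p under 0.05, called from here on, 427 genes (2.58% of those tested) were higher and 619 (3.74%) lower in KO, together 6.32%. The fold changes were moderate: 121 of the higher and 262 of the lower genes moved by at least 2-fold, and the medians were 1.60-fold and 1.84-fold. The median log2 difference over all genes tested was -0.01. Among all genes tested, 56.3% had no overlap between the WT and KO values (26.9% with KO higher and 29.4% with KO lower), so an absence of overlap carries little weight with 2 clones a side. The WT clones differed from each other by a median of 0.193 on the log2 scale and the KO clones by 0.122, each between 2 single libraries. For KO minus WT the median was 0.212, taken between means of 2 libraries. Such means vary less than single libraries, so these values are not like for like. Of the genes called lower in KO, 485 were higher in WT clone 54 than in WT clone 15 and 134 the other way round.

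These calls rest on both KO clones and on the spread pooled over the 8 libraries. All 1046 genes kept their direction in every alternative that tested them, but only 116 genes were called from the 4 libraries without 4-OHT alone, 21 without KO clone 66 and 5 without KO clone 69. Leaving out WT clone 54 gave 384 calls and leaving out WT clone 15 gave 1833. The 5 genes called without KO clone 69 were also called without KO clone 66: the small RNA SCARNA22, NXN, ADGRE1 and ZNF426, all lower in KO, and FHOD3, higher in KO. Every count of called genes below shares this limit. Counts without 4-OHT are to be read beside the 2.58% called higher and 3.74% called lower of all genes tested. Of the genes named below, TIE1, AREG, CAMK4, HGF, LMNB2, KCNN4 and MAGEC2 were not called with a pseudocount of 1. PHGDH, SNORA6, AREG, CAMK4, PCDHGB5, SOX4, PRSS35, HGF, LUM, KCNN4 and MAGEC2 were not called by voom on recovered reads. With a pseudocount of 0.01, SCARNA22, AL138789.1, CMPK2, SOX4, LUM, CTSH, RPS25 and LMNB2 were not called. SCARNA22, with 8 and 8 reads in WT and 1 and 0 in KO, was also not called from the 4 libraries alone (limma, adjusted p = 0.0831).

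**Figure D1:**
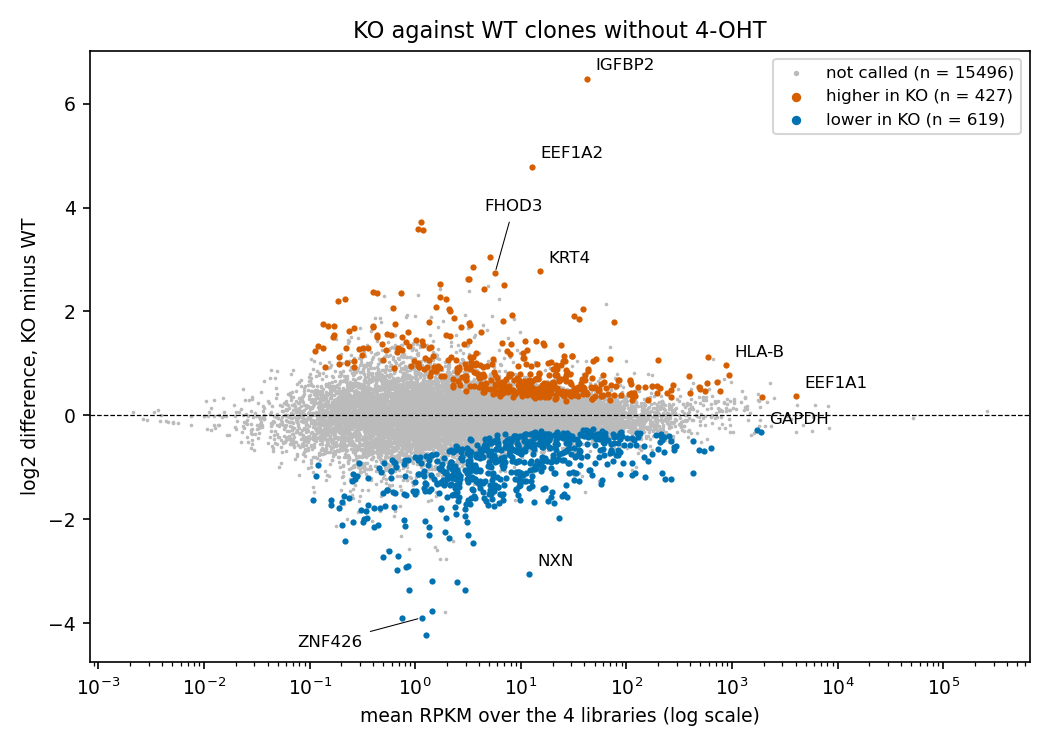
Each point is 1 of the 16542 genes tested, with its mean RPKM over the 4 libraries without 4-OHT on a log axis and the log2 difference KO minus WT on the vertical axis; coloured points are the 427 genes called higher and the 619 called lower. The genes with the strongest differences, such as IGFBP2 above and ZNF426 below, lie at low to middle levels, while EEF1A1 and GAPDH, the most abundant genes called higher and lower, moved by less than 1.5-fold.

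Genes of cell division formed the largest block among those that fell. Over 9 lists covering spindle, kinetochore, mitotic kinases, chromosome separation, condensin and cohesin, replication, nucleotide supply, recombination and histones, 153 of 298 tested genes were called lower and 0 higher, against 3.74% and 2.58% of all genes. They made up 24.7% of all genes called lower, and their median difference was 1.73-fold. Without WT clone 54 the number called lower was 69, without KO clone 66 it was 3 and without KO clone 69 it was 0, with 264, 263 and 272 of the 298 estimates below 0. From the 4 libraries alone it was 19. In bulk RNA, fewer dividing cells and less message per dividing cell cannot be told apart.

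Of 28 spindle motors and microtubule regulators, 24 were called lower and every estimate was below 0 (median -1.20 on the log2 scale). Their summed level was 332 and 444 RPKM in WT clones 15 and 54 and 186 and 190 RPKM in KO clones 66 and 69. HMMR, a microtubule-binding protein of the spindle, went from 5.76 and 8.54 RPKM in WT to 2.11 and 2.20 RPKM in KO. TPX2, which activates Aurora A on the spindle, went from 14.4 and 20.3 RPKM to 6.71 and 6.15 RPKM, 2.64-fold (adjusted p = 0.00889). KIF11, the motor that pushes spindle poles apart, fell 2.53-fold from 8.74 and 11.3 RPKM to 3.83 and 3.90 RPKM. In all of these the KO clones nearly coincided, whereas WT clone 54 stood above WT clone 15, by a median of 0.39 (log2) over the list. ANLN, a scaffold of the cleavage furrow, had 28 and 45.4 RPKM in WT and 11.9 and 12.2 RPKM in KO.

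Kinetochore and centromere proteins gave 26 of 35 called lower, with a median of -0.98. HJURP, the chaperone that loads the centromeric histone, fell 2.85-fold, from 7.06 and 7.86 RPKM to 2.91 and 2.22 RPKM (adjusted p = 0.00794). CENPF was at 7.28 and 10.4 RPKM in WT and at 3.31 and 3.24 RPKM in KO. NUF2 and SPC25, subunits of the Ndc80 complex that grips microtubules, fell 3.26-fold and 3.24-fold. The constitutive centromere subunit CENPT moved least among those called, by 1.29-fold.

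Among mitotic kinases, cyclins and checkpoint proteins, 27 of 32 were called lower (median -1.25). PBK, a mitotic kinase, was at 12.0 and 14.3 RPKM in WT and at 4.92 and 4.68 RPKM in KO, 2.69-fold lower (adjusted p = 0.00708). BIRC5, the survivin subunit of the chromosomal passenger complex, fell 3.22-fold and TTK, the kinase that starts checkpoint signalling, 3.10-fold. CDC25B, a phosphatase that activates CDK1, fell 2.04-fold and CDK1 itself 2.13-fold, from 10.8 and 11.2 RPKM to 5.19 and 5.04 RPKM.

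The complexes that separate and shape chromosomes gave calls for only some of their genes. Of 20 genes of the anaphase promoting complex and of chromosome separation, 5 were called lower: the coactivator CDC20, the ubiquitin-conjugating enzyme UBE2C, the inhibitor FBXO5 and the separase pair ESPL1 and PTTG1, from 1.80-fold for FBXO5 to 2.98-fold for CDC20. Of the 13 core subunits tested, limma called 0, with 2 at an unadjusted p under 0.05 and 0 called by voom, and log2 differences lay between -0.40 and 0.26. Of 22 condensin and cohesin genes, 10 were called lower, among them the cohesion factor CDCA5 (2.74-fold) and the condensin I subunits NCAPH (2.45-fold) and NCAPD2 (1.89-fold). The 5 cohesin ring genes tested, which act throughout the cycle, ranged from -0.29 to 0.21; limma called 0 of them, with 1 at an unadjusted p under 0.05 and 1 called by voom.

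Many promoters of these mitotic genes hold short elements that the comparison did not use. Genes expressed in G2 and mitosis are known to be bound by the DREAM and MYB-MuvB complexes at an element called CHR, often beside CCAAT boxes bound by NF-Y. Windows from 250 bases before to 50 bases after the start were taken from RefSeq (GRCh38.p14) for the 11076 genes tested that have an entry, and searched on both strands. CHR was searched as TTTGAA or TTTAAA and the CCAAT box as CCAAT, with overlapping matches allowed. Of the called spindle, kinetochore and mitotic kinase genes, 64 have a window, and 44 of these (68.8%) hold CHR, against 31.7% of all genes called lower, 16.5% of those called higher and 16.2% of all genes tested. CHR and CCAAT together were found in 32 of the 64 windows, against 6.55% of all genes tested and 9.27% of all windows of the table. Over the whole lists, called or not, CHR was in 84.6% of spindle, 46.4% of kinetochore and 60% of mitotic kinase windows. It was in 23% of the windows of genes called lower that are in none of the gene lists used here, and in 24% of all windows of the table. The replication, nucleotide and recombination genes called lower differ: CHR was in 18.4% of their 38 windows, while the E2F core GCGGGAA was in 42.1%, against 10.2% of all genes tested and 7.81% of the mitotic windows. Over these whole lists, called or not, the E2F core was in 39.1% of replication, 21.4% of nucleotide and 42.4% of recombination windows. Called and uncalled members were not compared, so these shares describe the lists and not the calls. The E-box CACGTG (9.94% of genes called lower, 9.88% of all tested) and AP-1 sites TGANTCA (4.97% and 4.73%) were found about as often as in all genes. A match is a string of letters and not a bound site.

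To show how the elements are arranged, the 150 bases upstream of the start are printed for the 4 called mitotic genes with the smallest p that hold both elements there, a condition met by 23 of 64. Each is given 5′ to 3′ on the strand of the gene, ending at the base before the start, with matches to CHR and CCAAT (or their reverse complements) in capitals.

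KIF20A (chr5:138178962-138179111, plus strand): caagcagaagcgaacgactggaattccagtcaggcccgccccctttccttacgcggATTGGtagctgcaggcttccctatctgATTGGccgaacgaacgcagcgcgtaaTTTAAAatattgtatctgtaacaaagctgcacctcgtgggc
DLGAP5 (chr14:55191586-55191735, minus strand): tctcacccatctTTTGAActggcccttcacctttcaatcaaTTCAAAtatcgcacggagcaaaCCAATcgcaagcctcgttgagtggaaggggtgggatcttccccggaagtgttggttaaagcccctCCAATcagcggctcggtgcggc
HJURP (chr2:233854536-233854685, minus strand): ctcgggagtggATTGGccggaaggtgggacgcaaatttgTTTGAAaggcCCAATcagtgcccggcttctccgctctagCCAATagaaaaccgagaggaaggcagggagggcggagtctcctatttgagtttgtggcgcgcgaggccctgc
HMMR (chr5:163460482-163460631, plus strand): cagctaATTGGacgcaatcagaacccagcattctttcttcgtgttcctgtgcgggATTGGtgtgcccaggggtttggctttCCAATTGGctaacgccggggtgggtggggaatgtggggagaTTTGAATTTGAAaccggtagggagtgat

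KIF20A, a motor of late mitosis, has 1 CHR match and DLGAP5, a spindle assembly protein, 2. HJURP has 1 CHR match among 3 CCAAT matches, and HMMR has a repeated pair of CHR matches close to the start. The levels of KIF20A in the same libraries were 18.3 and 22.7 RPKM in WT and 7.02 and 5.78 RPKM in KO, and those of DLGAP5 were 8.84 and 11.8 RPKM and 3.32 and 3.12 RPKM.

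Genes of DNA replication were called in 1 direction. Of 54 origin and fork genes, 25 were called lower and 0 higher, with a median of -0.76 and 51 estimates below 0. LIG1, the ligase that joins Okazaki fragments, fell 2.71-fold, from 6.35 and 8.60 RPKM to 2.97 and 2.39 RPKM (adjusted p = 0.0094). MCM5, a subunit of the replicative helicase, was at 14.5 and 21.0 RPKM in WT and at 7.44 and 7.07 RPKM in KO. ORC6 and GINS4 fell 2.78-fold and 2.50-fold. Of 16 genes for deoxynucleotide supply, 5 were called lower, among them both subunits of the ribonucleotide reductase of S phase, RRM2 (2.41-fold) and RRM1 (1.65-fold), and TYMS, which makes thymidylate (2.23-fold). Of 36 recombination and checkpoint genes, 13 were called lower, among them the recombinase partner RAD51AP1 (2.57-fold) and the Fanconi anaemia genes FANCA (2.85-fold), FANCD2 (2.53-fold) and FANCI (2.07-fold).

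Histone genes that are expressed with replication gave 18 of 55 called lower, and 53 estimates were below 0. Summed over the list, their level was 6520 and 7847 RPKM in WT and 4791 and 4621 RPKM in KO. HIST1H2BO was at 136 and 176 RPKM in WT and at 71.9 and 66.9 RPKM in KO, and HIST1H2BN fell 1.58-fold. Many of these genes are near-identical copies, so reads may have been divided among them. NPAT, the coactivator of histone transcription, was higher in KO, at 7.82 and 7.10 RPKM against 5.66 and 5.09 RPKM, and was the only 1 of 10 histone processing genes called.

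**Figure D2:**
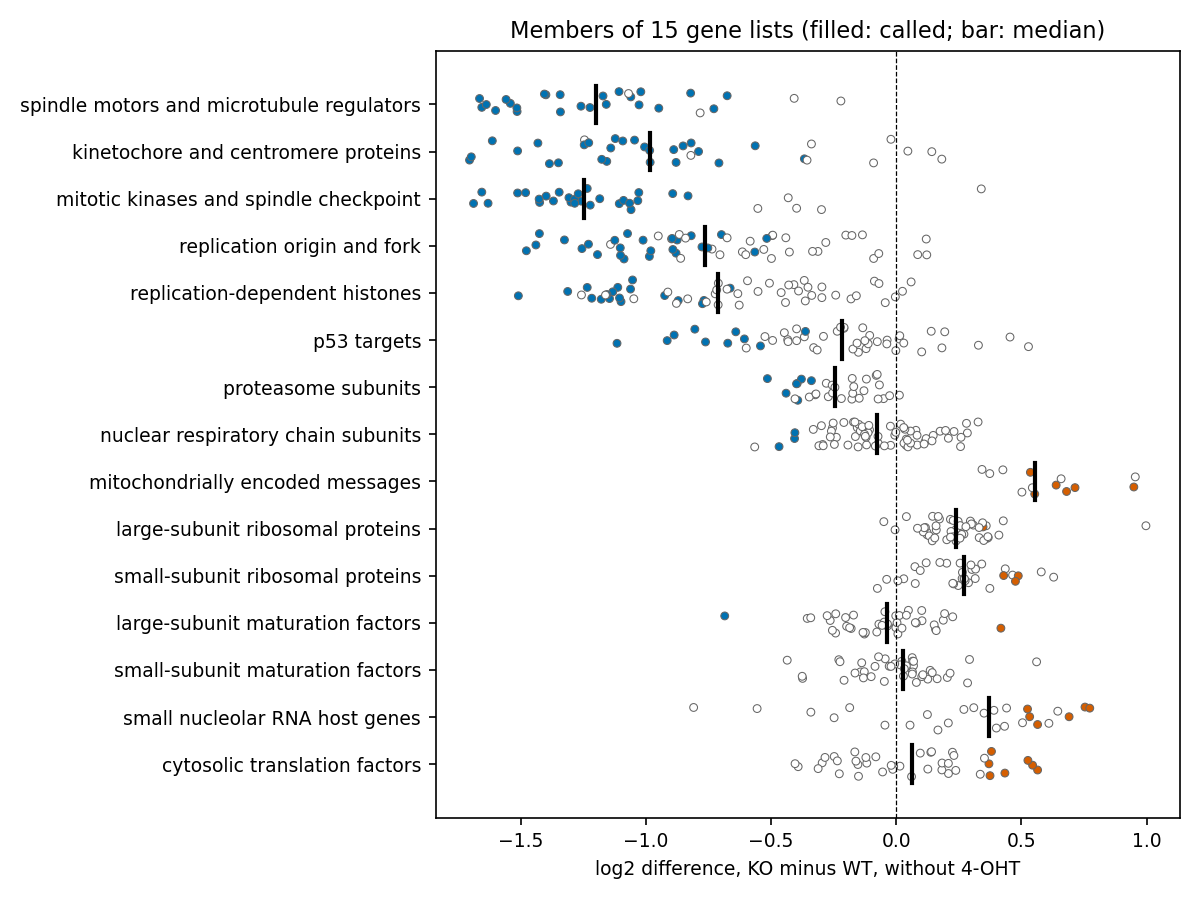
Each point is 1 gene of a list with its log2 difference KO minus WT without 4-OHT; filled points were called and open points were not, black bars mark list medians and the dashed line marks 0. The 3 mitosis lists lie almost wholly below 0, the lists of ribosomal proteins and mitochondrially encoded messages lie almost wholly above 0, and ribosome maturation factors lie on both sides.

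Regulators at the start of the cycle moved in both directions. E2F7, a repressor and itself an E2F target, fell 2.47-fold, from 1.65 and 2.0 RPKM to 0.665 and 0.687 RPKM (adjusted p = 0.00633). MYBL2 fell 3.01-fold, E2F1 2.09-fold and the MuvB subunit LIN9 1.74-fold, while E2F5, a partner of the pocket proteins in resting cells, was 2.10-fold higher. In the list of 21 regulators, 4 were called lower and 1 higher. Of 14 G1 cyclins and kinases, CDK2 and CCNE2 fell, 1.86-fold and 1.75-fold, and CDK6 rose. CDK6 was at 14.2 and 14.1 RPKM in WT and at 21.6 and 21.3 RPKM in KO, 1.51-fold, and CDK2 went from 11.6 and 11.9 RPKM to 6.54 and 5.99 RPKM. Of 33 lamin, HMG and heterochromatin genes, 9 were called lower. They include the histone variants H2AFZ (1.64-fold) and H2AFX (1.90-fold), HMGN2 (1.49-fold), the methyltransferase EZH2 (1.60-fold) and LMNB2 (1.84-fold).

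Targets of p53 also leaned down. Of 48 tested, 10 were called lower and 0 higher, and the median was -0.22. POLH, a polymerase that copies past DNA damage, was at 7.11 and 6.88 RPKM in WT and at 3.75 and 4.44 RPKM in KO, 1.70-fold lower (adjusted p = 0.0115). The death receptors FAS and TNFRSF10B fell 1.75-fold and 1.29-fold, the ectodysplasin receptor EDA2R 1.52-fold and the pore-forming BAX 1.46-fold, from 79.8 and 88.7 RPKM to 56.5 and 59.1 RPKM. WT clones 15 and 54 were close on this list, with a median difference of 0.03. Without WT clone 54 the number called was 5.

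Ribosomal protein genes had estimates slightly above 0 almost throughout, while few passed the test. Of 47 large-subunit ribosomal proteins, 45 had estimates above 0 (median 0.24), and of 33 small-subunit proteins 31 did (median 0.27), but only 1 and 3 were called higher, against 2.58% of all genes. RPS23 was at 239 and 206 RPKM in WT and at 302 and 320 RPKM in KO, 1.40-fold, and RPS25 at 720 and 568 RPKM and at 875 and 904 RPKM, 1.39-fold. On these lists WT clone 54 was below WT clone 15, by medians of 0.18 and 0.11, and the summed level of large-subunit messages was 30531 and 27354 RPKM in WT and 33568 and 34336 RPKM in KO.

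Translation factors gave 7 of 41 called higher and 0 lower, with 22 estimates above 0, 19 below 0 and a median of 0.06. Those called were the poly(A)-binding proteins PABPC1 (1.46-fold) and PABPC4 (1.30-fold), TPT1 (1.44-fold), the initiation factors EIF3J (1.30-fold), EIF4B (1.35-fold) and EIF4A2 (1.48-fold), and the elongation factor EEF1A1. EEF1A1 was at 3689 and 3384 RPKM in WT and at 4451 and 4687 RPKM in KO, 1.29-fold (adjusted p = 0.0389), the highest level of any gene called higher. Without WT clone 54, 0 of the 41 were called. Of 26 small nucleolar RNA host genes, 6 were called higher and 0 lower, with a median of 0.37. SNHG29 was at 340 and 249 RPKM in WT and at 462 and 521 RPKM in KO, SNHG6 was 1.61-fold, SNHG16 1.44-fold and SNHG7 1.45-fold higher, and EIF4A2 and EPB41L4A-AS1 belong to this list as well. Messages of ribosomal proteins, several of these factors and several host transcripts are known to carry a pyrimidine tract at their start. Without WT clone 54 the number of host genes called was 1.

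Lists of factors that build ribosomes had medians near 0. Of 43 large-subunit maturation factors, 1 was called in each direction: BRIX1 fell 1.61-fold, from 30.8 and 34.6 RPKM to 20.3 and 20.2 RPKM, and MAK16 rose 1.34-fold. Of 44 small-subunit maturation factors limma called 0, at a median of 0.03, with 7 at an unadjusted p under 0.05 and 2 called by voom. Their smallest adjusted p was 0.0512, for TSR2. RNA polymerase I subunits and factors had a median of 0.00, and limma called 0 of 16, with 4 at an unadjusted p under 0.05 and 0 called by voom. RUVBL2, a helicase that helps assemble small nucleolar particles, fell 1.45-fold and was the only 1 of 21 particle and nucleolar proteins called.

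Other small nucleolar RNAs were measured thinly, since most had few reads. Of 103 that the annotation classes as such, which include the Cajal body RNA SCARNA12, 6 were called higher and 3 lower. SCARNA7, a Cajal body RNA with 2757 to 4773 reads per library, was at 427 and 366 RPKM in WT and at 572 and 586 RPKM in KO, 1.47-fold (adjusted p = 0.018). SCARNA22 had 8 and 8 reads in WT and 1 and 0 in KO, and SNORA6 5 and 7 reads in WT and 16 and 19 in KO. The abundant H/ACA RNAs SNORA73A and SNORA73B were within 1.08-fold and 1.06-fold of WT and were not called.

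Messages encoded in the mitochondrial genome, which specify subunits of the respiratory chain, leaned up. All 13 estimates were above 0, from 0.34 to 0.95 on the log2 scale with a median of 0.55. Of the 13, 6 were called higher, against 2.58% of all genes. MT-ND5, a complex I subunit, was at 41.3 and 40.8 RPKM in WT and at 60.5 and 60.2 RPKM in KO, 1.47-fold (adjusted p = 0.0094). MT-CO1, the catalytic subunit of cytochrome oxidase, was at 649 and 489 RPKM and at 868 and 886 RPKM, 1.56-fold. The others called were MT-ND6 (1.60-fold), MT-ATP6 (1.64-fold), MT-ATP8 (1.93-fold) and MT-ND4 (1.45-fold). The genes MT-ATP8 and MT-ATP6 overlap, as do MT-ND4L and MT-ND4, so their reads could not be fully separated. Without WT clone 54 the number called was 2, with all 13 estimates still above 0. Of 68 nuclear genes for the same respiratory chain, 0 were called higher and 3 lower, against 2.58% and 3.74% of all genes. Among the 3 were UQCRC1 (1.38-fold) and ATP5PO (1.32-fold), and the median was -0.08. Neither mitochondrial ribosomal RNA was called. MT-RNR1 was at 130 and 158 RPKM in WT and at 72.6 and 127 RPKM in KO, an estimate 1.49-fold lower (adjusted p = 0.234), and MT-RNR2 differed by 1.04-fold.

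**Figure D3:**
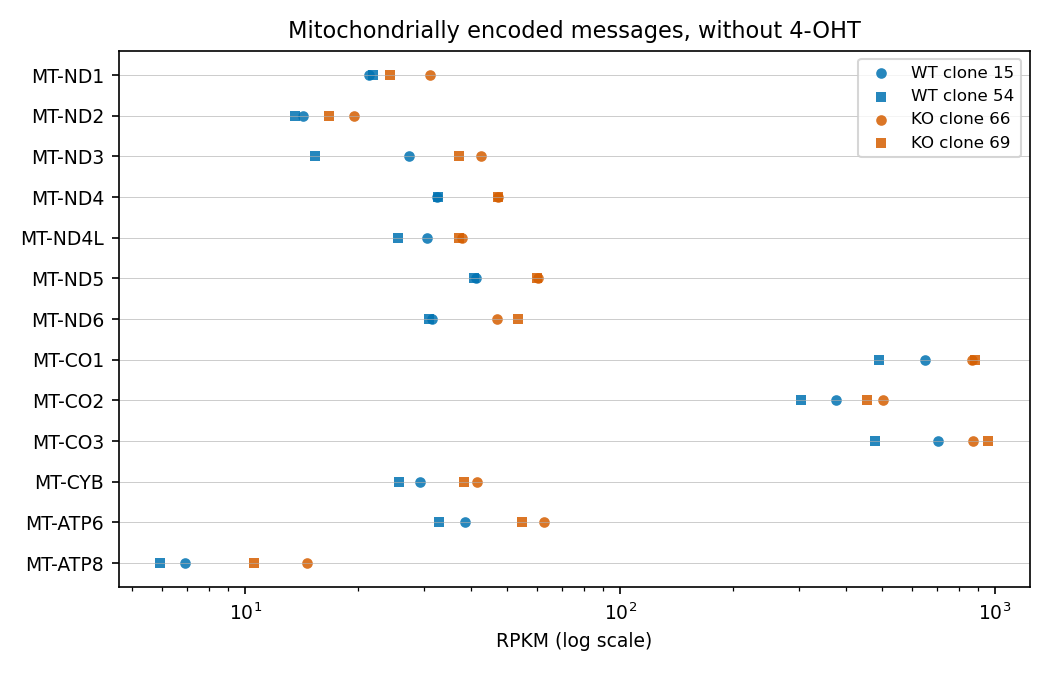
RPKM of the 13 messages encoded in the mitochondrial genome on a log axis, 1 marker per library without 4-OHT (WT clones 15 and 54, KO clones 66 and 69). For every message both KO libraries lie above both WT libraries, as for MT-ND5 with 41.3 and 40.8 RPKM in WT and 60.5 and 60.2 RPKM in KO. The same holds for 26.9% of all genes tested.

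Proteasome genes and several metabolic and stress lists had medians below 0. Of 31 proteasome subunits, 30 had estimates below 0 (median -0.24) and 7 were called, from 1.26-fold for PSMD3 to 1.43-fold for PSMD2. PSMB3, a subunit of the core, was at 234 and 252 RPKM in WT and at 185 RPKM in each KO clone. None of the 7 was called without WT clone 54 or from the 4 libraries alone. In cholesterol and fatty acid synthesis 27 of 31 estimates were below 0 and 4 were called: MVD (1.76-fold), LSS (1.58-fold), MVK (1.37-fold) and ACLY (1.24-fold), the first 3 of them in the sterol branch. MVD was at 25.3 and 26.4 RPKM in WT and at 14.2 and 15.1 RPKM in KO. Amino acid supply and the integrated stress response gave 5 of 32 lower, at a median of -0.39. PHGDH, which opens serine synthesis, fell 2.41-fold, DDIT4, an inhibitor of mTORC1, 3.10-fold and CHAC1, a glutathione-degrading enzyme, 1.87-fold. DDIT4 was at 14.3 and 15.2 RPKM in WT and at 4.70 RPKM in each KO clone. Of 27 NRF2 target, metallothionein and aldo-keto reductase genes, HMOX1 (1.86-fold), NQO1 (1.59-fold), AKR1B1 (1.89-fold) and MT2A (1.59-fold) were called lower. GAPDH, PKM and HK1 were the 3 of 29 glycolysis and hypoxia genes called, all lower. GAPDH, with 2070 and 2076 RPKM in WT and 1655 and 1656 RPKM in KO, is the most abundant gene called lower, at 1.25-fold. Of 25 chaperones and 20 endoplasmic reticulum stress genes limma called 0, with 7 of each at an unadjusted p under 0.05 and 1 and 2 called by voom. The smallest adjusted p were 0.0634 for HSPH1 and 0.0606 for DNAJB9. Lysosomal genes were called in the other direction, 4 of 36 higher, the proteases CTSH (2.57-fold) and CTSF (1.62-fold), the sterol carrier NPC2 (1.33-fold) and the glucosidase GAA (1.42-fold).

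Of 48 interferon-stimulated genes, 5 were called higher and 0 lower, with 24 estimates on each side of 0 and a median of 0.00. They were the class I antigen-presenting genes HLA-B, HLA-C and HLA-F, their common light chain B2M, and CMPK2. HLA-B was at 548 and 638 RPKM in WT and at 1087 and 1218 RPKM in KO, 1.95-fold (adjusted p = 0.0094). B2M was at 791 and 600 RPKM and at 1156 and 1202 RPKM, 1.71-fold. Without WT clone 54, 3 of the 48 were called. The class I genes resemble each other, and reads of HLA-B and HLA-C may have been shared between them. Whether these members differ from the rest of the list was not tested.

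At the cell surface and in the matrix, single genes moved in both directions. Of 15 integrin chains 4 were called lower. ITGB3, a chain of the vitronectin receptor, fell 3.45-fold, from 2.46 and 3.09 RPKM to 0.643 and 0.822 RPKM (adjusted p = 0.00771), and ITGA3, the laminin receptor chain, 1.66-fold, from 211 and 228 RPKM to 134 and 130 RPKM. ITGA8 fell 1.83-fold and the fibronectin receptor chain ITGA5 1.49-fold. Of 27 collagens COL14A1 (6.54-fold), COL3A1 (1.41-fold) and COL1A1 (1.53-fold) were called lower, while the collagen crosslinking enzyme LOX (2.13-fold) and the fibril-binding proteoglycan LUM (2.19-fold) rose. LUM was at 474 and 285 RPKM in WT and at 766 and 847 RPKM in KO. Of 33 proteases and inhibitors, TIMP3 (1.91-fold), MMP10 (4.46-fold) and the plasminogen activator PLAT (1.59-fold) fell. Of 38 growth factors and receptors, 4 were called lower and 2 higher. The growth factors VEGFC (1.52-fold), PDGFC (2.05-fold), EREG (1.74-fold) and HGF (4.33-fold) fell, and AREG, a ligand of the epidermal growth factor receptor at under 1 RPKM in all 4 libraries, was 1.89-fold higher. Over the 15 alternatives the adjusted p ran from 0.00937 to 0.228 for HGF and from 0.0228 to 0.372 for AREG. AREG had 11 and 12 reads in WT and 27 and 24 in KO. WNT5B fell 2.35-fold, and the WNT antagonist DKK2 was higher, at 0.318 and 0.521 RPKM in WT and 4.03 and 2.02 RPKM in KO. TGFBR1, the type I receptor for TGF-beta, rose 1.51-fold and was the only 1 of 35 genes of that pathway called.

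Of 41 transcription factors of mesenchymal identity, 4 were called lower and 2 higher, at a median of -0.02, against 3.74% and 2.58% of all genes. TBX2 fell 2.34-fold, from 4.91 and 5.43 RPKM to 2.34 and 1.98 RPKM (adjusted p = 0.00561). PITX1 fell 1.82-fold, FOXF2 1.74-fold and PRRX1 1.67-fold, whereas TBX5 rose 1.36-fold and SOX4 2.20-fold. Of 19 HOX genes limma called 0, with 3 at an unadjusted p under 0.05 and 0 called by voom, and the smallest adjusted p was 0.125, for HOXA11. In retinoid metabolism RDH10, which makes retinaldehyde, rose 3.48-fold, from 42.6 and 27.2 RPKM to 112 and 126 RPKM, and the retinoic acid receptor RARB fell 2.30-fold. Of 38 axon guidance molecules, with 20 estimates above 0 and 18 below, 3 were called in each direction: EPHB6, PLXNC1 and SEMA3D higher, and UNC5B, EFNB1 and the receptor EPHA2 lower. Of 36 ion channels, SCN2A (2.47-fold) and the calcium-activated channel KCNN4 (3.49-fold) were among the 4 called lower, and KCNN2 (3.51-fold) was among the 3 called higher.

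The strongest single differences were taken as the 15 in each direction with the largest estimates, no overlap and a mean of at least 5 reads per 1000000 scaled library reads (CPM) in the higher group. IGFBP2, a secreted binder of insulin-like growth factors (chr2:216632828-216664436), was at 2.91 and 0.186 RPKM in WT and at 88.0 and 78.1 RPKM in KO, with a log2 difference of 6.48 (SE 1.08, adjusted p = 0.021). EEF1A2, the tissue-restricted form of the elongation factor, was at 1.70 and 0.321 RPKM and at 29.5 and 19.4 RPKM. For both genes the WT clones themselves differed by more than 5-fold. FHOD3, a formin that nucleates actin (chr18:36297714-36780055), had the smallest adjusted p of all genes, 0.000471, with 1.5 and 1.33 RPKM in WT and 9.93 and 9.95 RPKM in KO. Keratins KRT4 (6.84-fold) and KRT34 (5.69-fold) and the epithelial protease inhibitor SPINT1 (6.14-fold) were higher too. KRT4 was at 4.19 and 3.48 RPKM in WT and at 28.7 and 24.9 RPKM in KO. Prostaglandin synthesis was represented by PTGIS, prostacyclin synthase, at 1.99 and 0.480 RPKM and at 9.54 and 8.52 RPKM, and by PTGS2. The others were the sugar phosphate transporter SLC37A1, ZNF185, PALM, EPHB6, DMTN, CIB2 and PLXNC1, from 4.27-fold for PLXNC1 to 12.0-fold for SLC37A1.

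Among the genes that fell, ZNF426, a KRAB zinc finger gene (chr19:9523224-9538645), was at 2.46 and 2.05 RPKM in WT and at 0.0583 and 0.0571 RPKM in KO, 14.9-fold (adjusted p = 0.00187). ISYNA1, which makes inositol phosphate from glucose phosphate, fell 10.3-fold, from 5.06 and 5.99 RPKM to 0.411 and 0.486 RPKM. NXN, a thioredoxin-like regulator of WNT signalling (chr17:799313-979770), was at 18.4 and 24.3 RPKM in WT and at 1.56 and 3.85 RPKM in KO, 8.29-fold. DPT, a small matrix protein of the dermis, fell 9.23-fold, from 5.13 and 4.02 RPKM to 0.361 and 0.448 RPKM. The kinase JAK3 fell 4.96-fold, the adipogenic receptor PPARG 4.93-fold, the junction protein JAM2 7.84-fold, the receptor ROR1 4.08-fold and the protocadherin PCDHGB5 4.17-fold. The noncoding TP73-AS1, the protease PRSS35 and the adhesion gene TENM2 complete the group with COL14A1, CAMK4 and MAGEC2. MAGEC2, a cancer-testis antigen, had 42 and 189 reads in WT and 0 and 1 in KO.

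**Figure D4:**
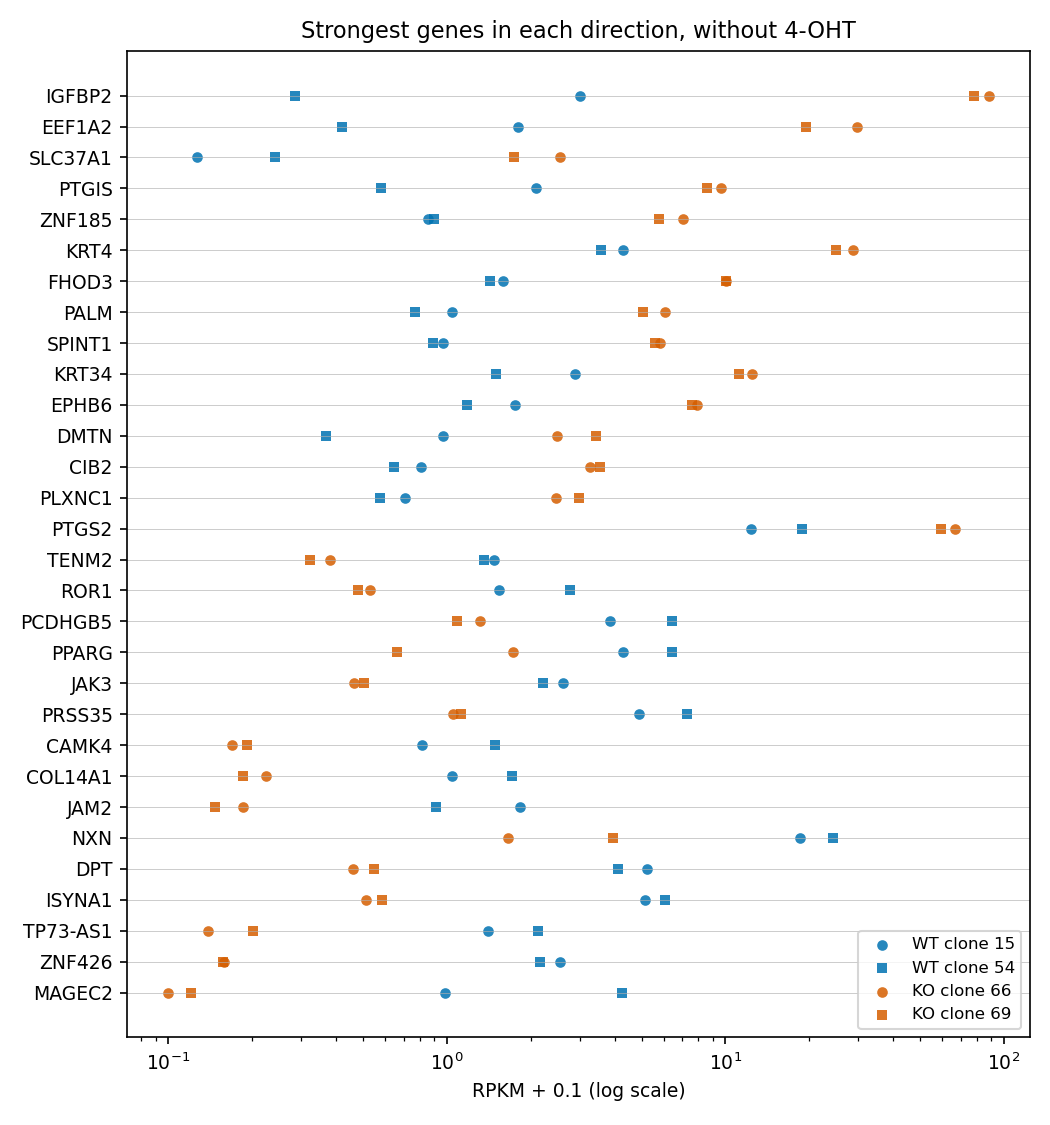
RPKM plus 0.1 on a log axis for the 15 strongest genes in each direction, 1 marker per library without 4-OHT. The KO libraries of IGFBP2 lie at 88.0 and 78.1 RPKM, far to the right of both WT libraries, and those of ZNF426 at 0.0583 and 0.0571 RPKM, far to the left.

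The neighbourhood of SNORA13 was looked at on its own. Of 15 genes tested around 5q22, the median difference was 0.16 and 10 estimates were above 0. Besides EPB41L4A-AS1, KCNN2 (chr5:114055545-114496500) was called higher and CAMK4, a calmodulin-dependent kinase (chr5:111223653-111494886), lower. CAMK4 was at 0.713 and 1.39 RPKM in WT and at 0.0693 and 0.0917 RPKM in KO, 6.10-fold. Its call ended with a pseudocount of 1 (adjusted p = 0.0795), with voom (0.144) and without WT clone 54 (0.0938), and over the 15 alternatives the adjusted p ran from 0.0189 to 0.151. Over the autosomes and the X chromosome the median difference lay between -0.09 (chromosome 16) and 0.08 (chromosome 18). On chromosome 16, 38 genes were called lower and 3 higher of 756 tested, against 3.74% and 2.58% of all genes. Whether chromosomes differ was not tested. Processed pseudogenes, many of them copies of abundant messages, had a median of -0.20 over 1050 entries, and WT clone 54 exceeded WT clone 15 there by a median of 0.34.

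The labelled cell type was checked with marker genes. Fibroblast markers were abundant, with a summed level of 5667 and 5396 RPKM in WT and 5137 and 4997 RPKM in KO, although POSTN had 0 reads in all 4 libraries. Of 14 fibroblast markers tested, 1 was called higher (LUM) and 3 lower (PRRX1, COL3A1, COL1A1). Markers of other types were mixed. The keratinocyte genes KRT5 and KRT14, the endothelial ERG, the immune CD68, the adipocyte LPL and the cartilage COMP had 0 reads in all 4 libraries. Others on the same lists were expressed: all 10 smooth muscle and pericyte markers passed the filter, with a summed level of 364 and 444 RPKM in WT and 381 and 397 RPKM in KO, mostly from TAGLN. In the other lists 5 of 14 epithelial, 5 of 10 endothelial, 4 of 12 immune, 5 of 12 melanocyte and neural and 3 of 10 adipocyte and cartilage markers passed. MITF, a melanocyte regulator, had 1426 to 2004 reads, CD14 294 to 476 and PTPRC 124 to 332. The immune sum was 14.3 and 16.7 RPKM in WT and 10.0 and 9.14 RPKM in KO, and the part of these markers in any result was not tested. Single genes of those lists were called lower, KRT18 (1.55-fold), TIE1, CD14 (1.61-fold), CSPG4 and PPARG, and none was called higher. KRT18 made up most of the epithelial sum of 804 and 780 RPKM in WT and 494 and 551 RPKM in KO. Library totals were 23.2 and 22.1 M reads (1 M is 1000000) in WT clones 15 and 54 and, slightly above both, 23.7 and 24.3 M reads in KO clones 66 and 69.

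With 4-OHT the same clones gave another picture. There, 2375 genes (14.4%) differed between the genotypes, 6.7% higher and 7.65% lower in KO. Calls without and with 4-OHT use the same spread per gene, pooled over the 8 libraries, so they are not independent. The KO minus WT difference itself changed between the conditions for 1230 genes (7.44%), 3.08% with a higher and 4.36% with a lower value without the drug. This test took the libraries as independent, although each clone gave 1 library without and 1 with 4-OHT. With clone as a replicate block the number was 1760. Of the 619 genes lower in KO without the drug, 123 were again called lower with it, 196 were called higher and 300 were not called. The 9 division lists supply most of the reversals: 128 of the 153 genes called lower were called higher with 4-OHT, and for 232 of the 298 genes the change passed the interaction test. When 1 library with 4-OHT was left out, these 128 became 25 without WT clone 15, 107 without WT clone 54, 42 without KO clone 66 and 6 without KO clone 69, while at least 151 of the 153 estimates with 4-OHT stayed above 0. The 232 became 183, 221, 182 and 128. HMMR stood at 10.4 and 10.5 RPKM in KO with 4-OHT, above 5.81 and 6.91 RPKM in WT, and NUF2 stood at 17.3 and 21.0 RPKM against 6.31 and 8.27 RPKM. NUF2 is among the genes with the largest changes, at a log2 difference of differences of -3.09 (adjusted p = 0.00548). Outside those lists, 122 of 466 genes called lower were called lower again.

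Of the 427 genes higher without the drug, 83 were called higher with it, 34 lower and 310 were not called. Of all genes tested, 6.7% were called higher and 7.65% lower with 4-OHT. Mitochondrial messages were below WT with 4-OHT, at a median of -0.32, and 4 of 13 were called lower, against 7.65% of all genes. The interaction test was passed by 9 of 13, against 7.44% of all genes. MT-CO1 changed from 1.56-fold higher to 361 and 326 RPKM in KO against 674 and 582 RPKM in WT. KRT4 and PTGIS were near 0 RPKM in every library with 4-OHT, and EDN1, the vasoconstrictor endothelin, went from 2.70-fold higher to lower, at 0.801 and 0.50 RPKM against 1.78 and 2.06 RPKM. PRSS3, a trypsinogen, was higher in KO under both conditions but by far more with 4-OHT, at 51.0 and 41.0 RPKM against 0.104 and 0.199 RPKM, where without the drug it was at 2.39 and 2.16 RPKM against 0.0367 and 0.191 RPKM. OLFML2B, an extracellular protein, was 3.82-fold lower without the drug and higher with it, at 10.3 and 8.65 RPKM against 3.21 and 5.60 RPKM. SCARNA22, HIST2H4B and the antisense gene AL138789.1 also passed the interaction test, on few reads or on near-identical copies, and the counting strand is not given in the sources used here.

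Most of the strongest single genes kept their direction: by estimate 11 of the 15 leading higher and 15 of the 15 leading lower genes did. Of the 15 leading higher genes 9 were called higher with 4-OHT as well, against 6.7% of all genes. Of the 15 leading lower genes 11 were called lower again, against 7.65% of all genes, with 0 of the 30 called in the opposite direction. By the interaction test 6 of the leading higher and 3 of the leading lower genes changed, against 7.44% of all genes. IGFBP2 stood at 28.5 and 35.4 RPKM in KO with 4-OHT and at 0.731 and 0.0644 RPKM in WT. ZNF426 stood at 0.140 and 0.0896 RPKM in KO and at 1.96 and 1.70 RPKM in WT. FHOD3 was among the leading higher genes that changed, with KRT4, KRT34, PTGIS, ZNF185 and PLXNC1. With 4-OHT the WT level of FHOD3 was 6.77 and 6.76 RPKM and KO stood at 7.68 and 6.54 RPKM, a log2 difference of 0.07 (adjusted p = 0.742).

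**Figure D5:**
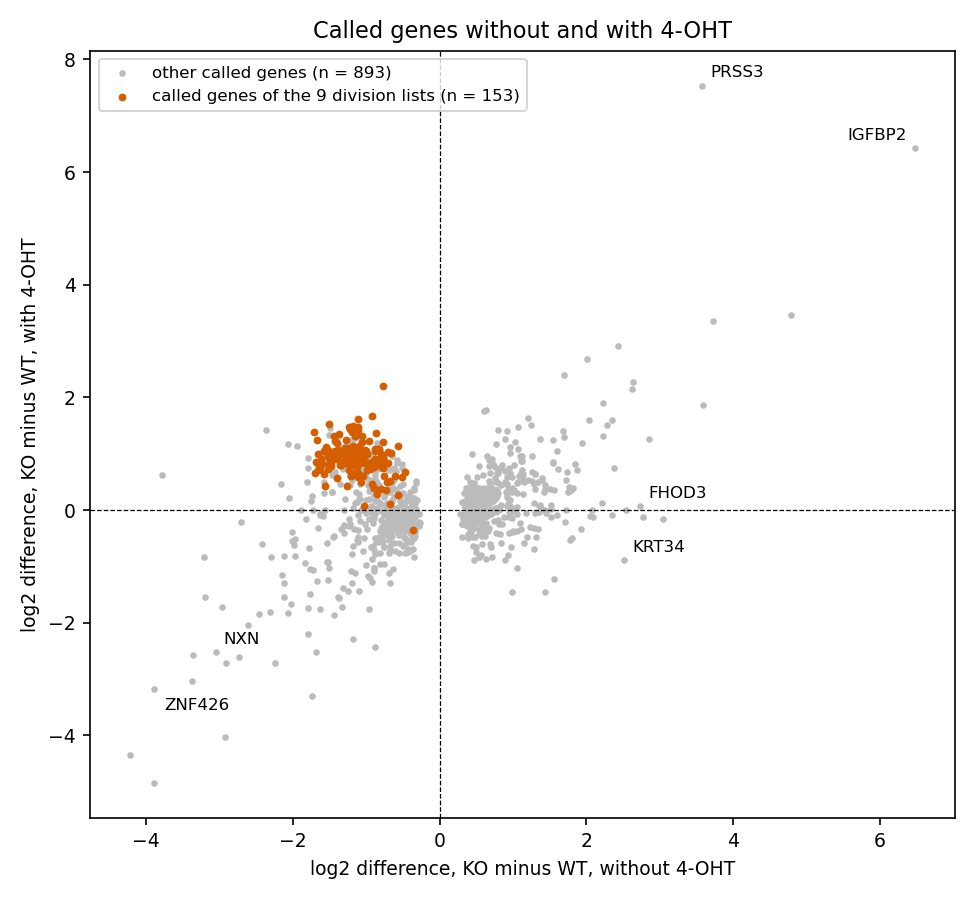
For the 1046 genes called without 4-OHT, the log2 difference KO minus WT without the drug (horizontal) is set against the same difference with the drug (vertical); filled orange points are genes of the 9 division lists. The 153 division genes lie left of 0 and mostly above 0, whereas IGFBP2 and ZNF426 keep their side.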

How the data were processed

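RNA-seq libraries of 4 clones, each without and with 4-OHT, were compared. The deposited table holds RPKM per gene and library, made by the authors from stranded total RNA with STAR, featureCounts and edgeR on GRCh38, per the submitters' processing notes, which name no versions. No source used here states the strand setting or the read filters. In the column names a minus sign was read as without 4-OHT, a reading that no label spells out.

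Reads were recovered from the RPKM values and gene lengths (100% of 159719 values checked lay within 0.1 of a whole number), giving 22.1 to 24.9 M reads (1 M is 1000000) per library. Recovered counts served for filters and for stating reads. Genes had to reach 0.425 reads per M in 2 libraries and 15 reads in all. Values were scaled by trimmed mean of M-values factors (0.940 to 1.035) and tested as log2(RPKM + 0.1) in R 4.3.3 with limma 3.58.1, with trend and robust moderation, on all 8 libraries (4 residual degrees of freedom). Adjusted p are Benjamini-Hochberg values over all 16542 genes, and fold changes are on this log2 scale, which understates changes of low genes. A count model had been planned in case the file held counts, and limma was used because it holds RPKM. The script was tested on simulated data with a spread that was set and not taken from these clones. Of 50 genes each, it called 4 raised and 3 lowered by 1.5-fold, and 30 raised and 25 lowered by 2-fold. Of its 70 calls, 8 were false. Most changes of 1.5-fold were thus missed there.

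Members and gene lists were chosen with earlier results of these data known. Named genes follow a rule: SNORA13 and its host, the 15 largest differences in each direction, the 5 most abundant called genes in each direction, up to 4 members with the smallest p per list, and the 5 called genes in each direction with the largest interaction. Other list members named were chosen after their values were seen. Some single genes that the rule covers are not reported here. Alternatives covered pseudocounts, filters, scaling, voom, moderation, a clone block and leaving out each library without 4-OHT. Leaving out each library with 4-OHT was added later, for the comparison with 4-OHT and the change between conditions.

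The numbers 15, 54, 66 and 69 name clones, so a number pairs the 2 libraries of 1 clone across treatments, and WT and KO share no clone.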

Additional observations from a re-analysis of the deposited data

Results flagged for a closer look

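For the genes below, the KO minus WT difference without 4-OHT differed from the same difference with 4-OHT by an interaction test (limma, adjusted p under 0.05). Values are the log2 difference without the drug minus that with it, so a negative value means that KO stood lower relative to WT without the drug than with it. Of all genes tested, 7.44% passed this test. The 2 comparisons use different libraries of the same clones.

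Spindle and kinetochore genes differed by -2.90 for KIF20A, -2.37 for HMMR, -2.43 for DLGAP5, -1.99 for ANLN, -1.97 for TPX2, -2.34 for KIF11, -3.09 for NUF2, -2.35 for SPC25, -2.33 for HJURP and -2.45 for CENPF. Mitotic kinases and checkpoint genes differed by -2.64 for PBK, -2.54 for BIRC5, -2.36 for TTK, -1.92 for CDK1 and -1.10 for CDC25B. Genes of chromosome separation, condensin and cohesion differed by -2.63 for CDC20, -2.25 for UBE2C, -2.17 for ESPL1, -1.95 for PTTG1, -1.69 for FBXO5, -2.43 for CDCA5, -2.30 for NCAPH and -1.78 for NCAPD2. Replication and nucleotide genes differed by -2.41 for ORC6, -2.39 for LIG1, -2.20 for GINS4, -1.69 for MCM5, -2.51 for RRM2, -2.01 for TYMS and -1.22 for RRM1. Recombination genes differed by -2.36 for FANCD2, -2.23 for FANCA, -2.15 for RAD51AP1 and -2.06 for FANCI. Histones and chromatin genes differed by -3.78 for HIST2H4B, -2.46 for HIST1H2BO, -1.67 for HIST1H2BN, -1.87 for H2AFX, -0.83 for H2AFZ, -1.42 for HMGN2, -1.38 for EZH2 and -1.50 for LMNB2. Cell cycle regulators differed by -2.53 for MYBL2, -1.86 for E2F1, -1.61 for CCNE2, -1.56 for LIN9, -1.16 for CDK2, -1.04 for E2F7 and 0.68 for CDK6.

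Mitochondrial messages differed by 1.51 for MT-CO1, 1.08 for MT-ATP8, 1.00 for MT-ND6, 0.96 for MT-ND4, 0.75 for MT-ATP6 and 0.71 for MT-ND5. Nuclear respiratory chain subunits differed by -0.64 for ATP5PO and -0.48 for UQCRC1. Matrix, surface and guidance genes differed by -2.63 for MMP10, -2.50 for COL14A1, -2.37 for DPT, -0.96 for COL3A1, -0.85 for COL1A1, 1.33 for LOX, -3.07 for OLFML2B, -1.85 for EFNB1, -1.29 for UNC5B, 2.22 for PLXNC1, -1.63 for TENM2, -1.04 for ITGA8 and -0.47 for ITGA3. Transcription factors differed by -1.02 for PRRX1, -0.98 for TBX2, -0.63 for FOXF2 and -0.55 for TBX5. Keratins differed by 3.39 for KRT34, 2.90 for KRT4 and -0.52 for KRT18. Small or antisense RNAs, on few reads except SCARNA7, differed by -4.40 for SCARNA22, -3.23 for AL138789.1 and 0.91 for SCARNA7. Among other genes that were lower relative to WT without the drug than with it, the values were -3.96 for PRSS3, -2.42 for PHGDH, -2.30 for KCNN4, -1.02 for SCN2A and -0.53 for NQO1. Among those higher, they were 0.51 for EIF3J, 0.60 for NPC2, 1.60 for ZNF185, 2.29 for RDH10, 2.53 for DKK2, 2.67 for FHOD3, 2.89 for EDN1 and 3.21 for PTGIS.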

How the results depend on the processing

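All 1046 genes called without 4-OHT kept their direction in every alternative that tested them, but the number called depended on the setting. Against 427 higher and 619 lower, testing all 36398 genes with reads gave 84 and 161, using only the 4 libraries without 4-OHT gave 47 and 69, and dropping trend and robust moderation gave 184 and 291. Voom gave 863 higher and 898 lower, so the higher share of calls went from 40.8% to 49%. Leaving out 1 library gave 1 to 837 higher and 4 to 996 lower, the lowest without KO clone 69 and the highest without WT clone 15, and the higher share of calls was 19.0% without KO clone 66 and 20.0% without KO clone 69. With 4-OHT, the unfiltered test gave 449 higher and 545 lower, dropping trend and robust moderation gave 755 lower, and leaving out 1 of the 8 libraries gave 66 to 1399 higher and 131 to 1564 lower, the lowest without the 4-OHT library of KO clone 69. Leaving out a library with 4-OHT was added after seeing the data, for this comparison and the change between conditions. With the library with 4-OHT of 1 clone left out, 177 genes were higher and 187 lower without WT clone 15, 743 and 595 without WT clone 54 and 331 and 522 without KO clone 66. The change between conditions, 1230 genes, was 437 unfiltered, 671 without trend and robust moderation and 280 to 2088 when 1 of the 8 libraries was left out, the lowest again without the 4-OHT library of KO clone 69 and the highest without the untreated library of WT clone 15. The causes were not tested, except that the unfiltered test covers more genes and leaving out a library leaves fewer.

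With clone as a replicate block (consensus correlation 0.148), the change between conditions was called for 1760 genes, against 1230 in the main test. Without 4-OHT the block gave 437 genes called higher and 629 lower, and 193 of 193 named genes kept their side of the threshold. Here and in the next sentence, a gene called neither in the main test nor in the alternative counts as keeping its side. Of the named genes, 55 kept their side of the threshold with the 4 libraries alone, 109 without WT clone 54, 20 without KO clone 66 and 13 without KO clone 69. The estimate of MT-RNR2, not called, lay at 0.288 without KO clone 66 and turned to -0.174 without KO clone 69. The planned edgeR and DESeq2 tests on recovered reads were not run, because the deposited unit is RPKM, and DESeq2 size factors were replaced by median-of-ratios factors. Where SNORA13 or another small RNA has under 10 reads, depth limits what can be said.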
